A study of Schizosaccharomyces pombe with 5 samples.

Results

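Transcripts of 9 genes of the DNA damage and replication checkpoints of fission yeast (Schizosaccharomyces pombe) were followed on 5 spotted oligonucleotide arrays. The members were chosen by gene symbol, as the probes that the array's annotation assigns to rad26, rad17, rad9, rad1, hus1, rad4, crb2, chk1 and cds1, among 4907 genes measured on every array. All 9 were found, each with 2 oligonucleotides that gave a value on all 5 arrays. Each array compared a Cy5-labelled with a Cy3-labelled cDNA from cells grown at 30 degrees. By their labels, 2 arrays were self-self hybridisations of wild-type cDNA (WT-labelled arrays 1 and 2), and on 3 arrays the Cy5 cDNA came from the strain tra1-1 and the Cy3 cDNA from wild type (mutant-labelled arrays 1, 2 and 3). Dyes were not swapped. The labels give no further genotype, growth medium or DNA-damaging treatment, nor the nature of the tra1-1 lesion in tra1, which encodes a large scaffold protein related to human TRRAP. Wee1, which the series title names, is a kinase that holds back mitosis and lies downstream of these checkpoints.

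The DNA structure checkpoints stop the cell cycle when DNA is broken or a replication fork stalls. The kinase Rad3, related to human ATR, is brought to single-stranded DNA by its partner Rad26, while a loader built on Rad17 places the ring-shaped clamp of Rad9, Rad1 and Hus1 on DNA. Rad4, also called Cut5 and related to human TopBP1, and Crb2 link this assembly to the effector kinase Chk1, which delays mitosis through Cdc25 and Wee1. The effector kinase Cds1 is activated mainly at stalled forks, with the adaptor Mrc1. These proteins are regulated mostly by phosphorylation and binding, which an RNA array does not measure.

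Values are log ratios of Cy5 over Cy3, taken as log2, with arrays centred on their medians, so that 0 means a ratio like that of the typical probe on that array. Neither the log base nor the direction is stated for these values. If the ratio were Cy3 over Cy5, every sign below would turn. A ratio gives no transcript level, so the genes are not ranked by abundance. The labels do not say that the arrays came from separate cultures, and p-values therefore measure the spread between these arrays. The tra1 transcript, which checks the labels, stood at -1.41 and -2.04 on WT-labelled arrays 1 and 2, and at 0.04, 0.02 and -2.21 on mutant-labelled arrays 1, 2 and 3. It was thus low on 3 arrays, 2 of which hold wild-type cDNA in both dyes by their labels, and near 0 on the other two. Over all genes, mutant-labelled array 3 correlated with WT-labelled arrays 1 and 2 at r = 0.72 and 0.74. With mutant-labelled arrays 1 and 2 it correlated at r = 0.47 each, while these correlated with each other at r = 0.65. Groups follow the labels as deposited, and each direction between them carries this doubt. The counts of members and of the related genes are also given without mutant-labelled array 3.

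None of the 9 checkpoint genes passed the test between the mutant-labelled and the WT-labelled arrays. In limma, 0 of 9 passed at an adjusted p under 0.05, with adjusted p from 0.743 to 0.996, and over all genes 0% passed (0 of 4907). At an unadjusted p under 0.05 there were also 0 of 9 members, against 7.11% of all genes. Differences ran from -0.30 for rad17 to 0.21 for rad26 on the log2 scale, with 3 members above and 6 below 0 and a median of -0.13. The median of all genes was -0.0025. The standard errors of the members were 0.16 to 0.22, and rad17 alone lay more than 1 standard error from 0. The 95% intervals, each for its gene alone, reached from -0.66 at the lowest end to 0.71 at the highest, and a 2-fold difference (1 on this scale) lay outside each of the 9 intervals. In RNA of whole cultures, fewer cells at 1 stage of the cell cycle and less RNA per cell cannot be told apart.

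**Figure D1:**
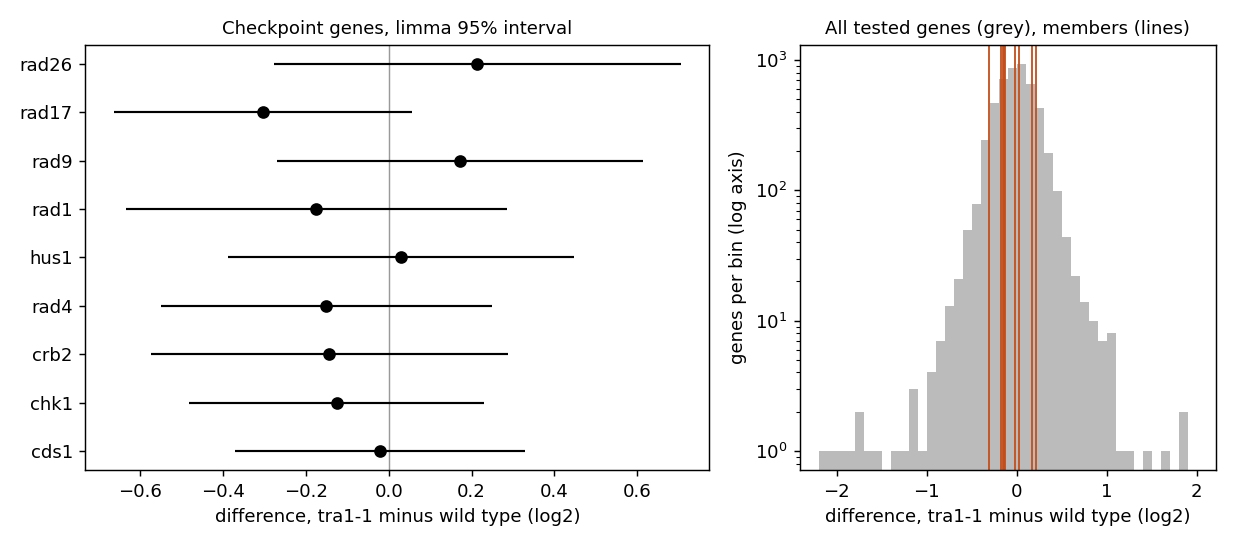
Left, difference between the mutant-labelled arrays (n = 3) and the WT-labelled arrays (n = 2) for each checkpoint gene on the log2 scale (point) with its 95% interval from limma (line). Right, the differences of all 4907 genes as a histogram with a log axis and the 9 members as vertical lines, which lie between -0.30 and 0.21 in the middle of the distribution.

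rad26 (SPOM_SPAC9E9.08), which encodes the partner that brings Rad3 to DNA, had the widest range of the 9 genes. Its ratio was -0.29 and -0.80 on WT-labelled arrays 1 and 2, and -0.22, -0.08 and -0.69 on mutant-labelled arrays 1, 2 and 3. It was below 0 on every array and lowest on WT-labelled array 2 and mutant-labelled array 3, and the groups overlapped. The means were -0.54 ± 0.36 (SD, n = 2) and -0.33 ± 0.32 (SD, n = 3), which leaves 0.21 ± 0.22 (SE) between the groups (limma adjusted p = 0.864). Without mutant-labelled array 3 the groups no longer overlapped and they lay 0.39 ± 0.18 (SE) apart, which missed the threshold (limma adjusted p = 0.276). Without WT-labelled array 2 the difference was -0.041. The first oligonucleotide carried most of the range, with -1.21 and -1.01 on WT-labelled array 2 and mutant-labelled array 3, where the second stood at -0.39 and -0.36. tra1 was low on these arrays and on WT-labelled array 1, where rad26 stood at -0.29 against -0.22 on mutant-labelled array 1. A relation between rad26 and tra1 was not tested.

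rad3, which encodes the kinase itself, stayed near 0, between -0.03 and 0.12 on the 5 arrays. The groups lay 0.08 ± 0.15 (SE) apart (limma adjusted p = 0.932).

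rad17 (SPOM_SPAC14C4.13), which encodes the subunit that turns the replication factor C complex into the loader of the checkpoint clamp, had the largest difference of the 9 genes in size. It stood at 0.48 and 0.20 on the WT-labelled arrays and at 0.08, -0.02 and 0.06 on the mutant-labelled arrays. Both WT-labelled arrays were above all 3 mutant-labelled ones, which no other member showed with either sign, against 23.3% of all genes with groups that do not overlap. The difference of -0.30 ± 0.16 (SE) had a 95% interval of -0.66 to 0.06 (limma adjusted p = 0.743). The oligonucleotides did not share it. The first gave 0.02 and 0.02 on the WT-labelled arrays and 0.12, -0.08 and -0.03 on the mutant-labelled arrays, a difference of -0.02. The second gave 0.94 and 0.38 against 0.03, 0.04 and 0.14, a difference of -0.59 ± 0.24 (SE, limma adjusted p = 0.713 over all probes). Without WT-labelled array 1 the difference of the gene was -0.16. The subunits that form the loader with Rad17 differed by 0.29 for rfc2, -0.01 for rfc3, 0.11 for rfc4 and 0.0034 for rfc5.

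**Figure D2:**
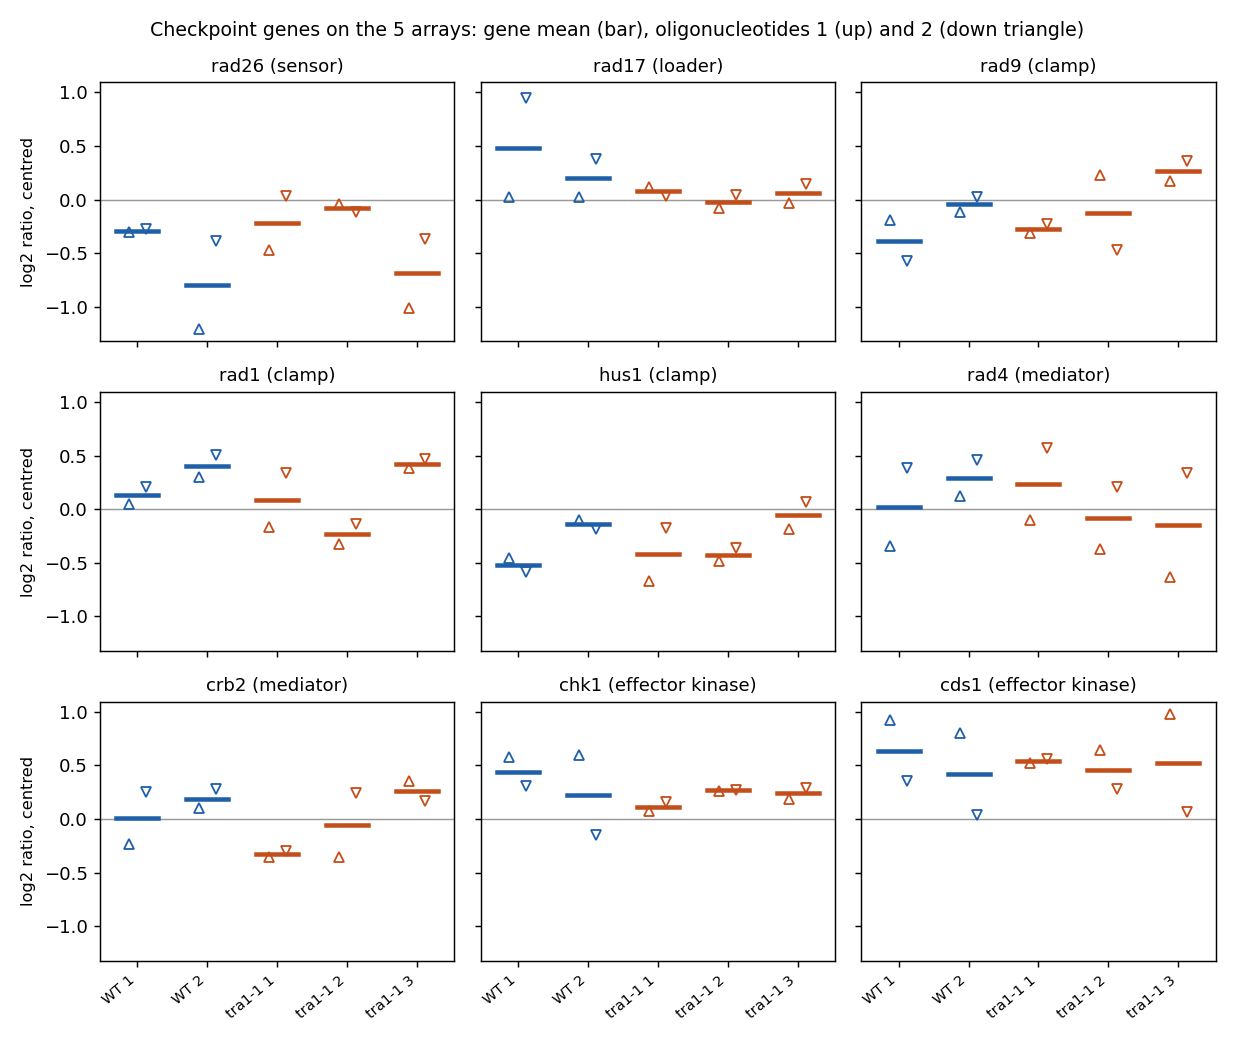
Ratio of each checkpoint gene on each array (log2, arrays centred on their median), blue for WT-labelled and orange for mutant-labelled arrays. Bars are the mean of the 2 oligonucleotides, which are shown apart as triangles. The bars of rad26 range from -0.80 to -0.08, and those of cds1 stay between 0.42 and 0.64 although its oligonucleotides lie apart.

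By the mean of their oligonucleotides, the genes of the clamp had their highest values on the same pair of arrays, 1 of each label. rad9 (SPOM_SPAC664.07C) stood at -0.38 and -0.05 on WT-labelled arrays 1 and 2 and at -0.27, -0.12 and 0.27 on mutant-labelled arrays 1, 2 and 3. rad1 (SPOM_SPAC1952.07) had 0.13 and 0.40, and then 0.09, -0.23 and 0.42. hus1 (SPOM_SPAC20G4.04C) had -0.52 and -0.14, and then -0.42, -0.42 and -0.06. The highest values of each of these 3 genes were on WT-labelled array 2 and mutant-labelled array 3, as in 12.2% of all genes (598 of 4907), while their lowest pairs of arrays differed. This pair was picked from the values of these genes, so the share is no background for agreement on any pair. crb2 had the same pair of highest arrays, and rad26 had this pair as its lowest, as had 14.2% of all genes. Of the clamp genes, rad1 alone had this highest pair on both oligonucleotides. The first of rad9 was highest on mutant-labelled arrays 2 and 3, at 0.225 and 0.175, with -0.121 on WT-labelled array 2. The second of hus1 was highest on mutant-labelled arrays 3 and 1, at 0.069 and -0.1745, with -0.181 on WT-labelled array 2. The mean over the 3 clamp genes was -0.26 and 0.07 on the WT-labelled arrays and -0.20, -0.26 and 0.21 on the mutant-labelled arrays. Differences between the groups were 0.17 for rad9, -0.17 for rad1 and 0.03 for hus1, with standard errors of 0.20, 0.21 and 0.19. The sign of hus1 turned under other scalings, with -0.015 for the values as deposited and -0.048 after quantile normalization. Its oligonucleotides differed in sign as well, at -0.17 and 0.23.

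rad4 and crb2, the genes of the mediators, overlapped between the groups. rad4 (SPOM_SPAC23C4.18C), whose product also acts in the start of replication, stood at 0.02 and 0.29 on the WT-labelled arrays and at 0.24, -0.08 and -0.15 on the mutant-labelled arrays. The groups lay -0.15 ± 0.18 (SE) apart. The second rad4 oligonucleotide was above the first on every array, by 0.66 on average, a gap larger than that of 90.1% of genes, while their differences between the groups were -0.26 and -0.04. crb2 (SPOM_SPBC342.05), whose product is related to human 53BP1, stood at 0.01 and 0.19, and at -0.33, -0.06 and 0.26 on the mutant-labelled arrays. Mutant-labelled array 3 was its highest and mutant-labelled array 1 its lowest, so the spread of the 3 mutant-labelled arrays (SD 0.29) exceeded the difference of -0.14. Only the first crb2 oligonucleotide was highest on mutant-labelled array 3, and it differed by -0.06. The second gave 0.255 and 0.276 against -0.30, 0.24 and 0.17, without overlap. It differed by -0.23 ± 0.24 (SE, limma adjusted p = 0.882 over all probes).

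The effector kinase genes were above 0 on every array. With rad26 and hus1, which were below 0 throughout, 4 of the 9 members lay on 1 side of 0 on all arrays, against 37.5% of all genes. cds1 (SPOM_SPCC18B5.11C) was the steadiest of the 9 by the mean of its oligonucleotides. It stood at 0.64 and 0.42 on the WT-labelled arrays and at 0.54, 0.46 and 0.52 on the mutant-labelled arrays. The range of 0.22 was narrower than that of all but 6.2% of genes. Its difference between the groups was -0.02, or 0.038 after quantile normalization, with a 95% interval of -0.37 to 0.33. cds1 was the 1 member of 9 whose ratio passed the test against 0, in both groups. The mean was 0.53 ± 0.15 (SD, n = 2, limma adjusted p = 0.0237) on the WT-labelled arrays and 0.51 ± 0.04 (SD, n = 3, limma adjusted p = 0.0341) on the mutant-labelled arrays. Over all genes, 11.4% passed this test on the WT-labelled arrays and 7.83% on the mutant-labelled arrays, so 1 of 9 members is near the background. The WT-labelled arrays are self-self hybridisations by their labels, and a ratio shared by both groups cannot be told apart from an effect of dye or spot. The first cds1 oligonucleotide gave 0.92 and 0.80 on the WT-labelled arrays and 0.52, 0.64 and 0.98 on the mutant-labelled arrays. The second gave 0.35 and 0.04, and then 0.56, 0.28 and 0.06. On mutant-labelled array 1 the first was at its lowest and the second at its highest. The narrow range is thus that of their mean, and neither oligonucleotide was as steady. The test against 0 depended on the centring, since the cds1 means were 0.22 and 0.15 as deposited and did not pass (limma adjusted p = 0.312 and 0.355). On the mutant-labelled arrays it also missed the threshold without replicate 1 or 2 (limma adjusted p = 0.118 and 0.11). Without mutant-labelled array 3 the ratios of rad26, rad17 and chk1 also passed on the WT-labelled arrays (limma adjusted p = 0.00521, 0.0387 and 0.0415), and that of hus1 on the mutant-labelled arrays (limma adjusted p = 0.0041). That makes 4 and 2 of the 9 members, where 27.9% and 22.4% of all genes passed in the same setting. The means on the WT-labelled arrays did not change in this setting. Their test uses a spread shared with the mutant-labelled arrays, and the standard error of rad26 fell from 0.17 to 0.13.

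chk1 (SPOM_SPCC1259.13), which encodes the effector kinase of the damage checkpoint, stood at 0.44 and 0.22 on the WT-labelled arrays and at 0.12, 0.27 and 0.24 on the mutant-labelled arrays. The groups overlapped, and lay -0.13 ± 0.16 (SE) apart (limma adjusted p = 0.895). The oligonucleotides pointed to opposite sides. The first had 0.58 and 0.60 against 0.07, 0.26 and 0.19, without overlap, and differed by -0.41 ± 0.22 (SE, limma adjusted p = 0.755 over all probes). The second had 0.31 and -0.15 against 0.16, 0.27 and 0.29, and differed by 0.16.

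The oligonucleotides of a gene gave differences of the same sign in 6 of the 9 members, the exceptions being chk1, cds1 and hus1. Over the 4673 genes with both oligonucleotides on all arrays this held for 56.6%, and across these genes, which are not independent replicates, the differences of the 2 oligonucleotides correlated with r = 0.36. The largest difference of a single oligonucleotide, that of the second of rad17, was thus not seen in its partner, nor was that of the first of chk1.

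**Figure D3:**
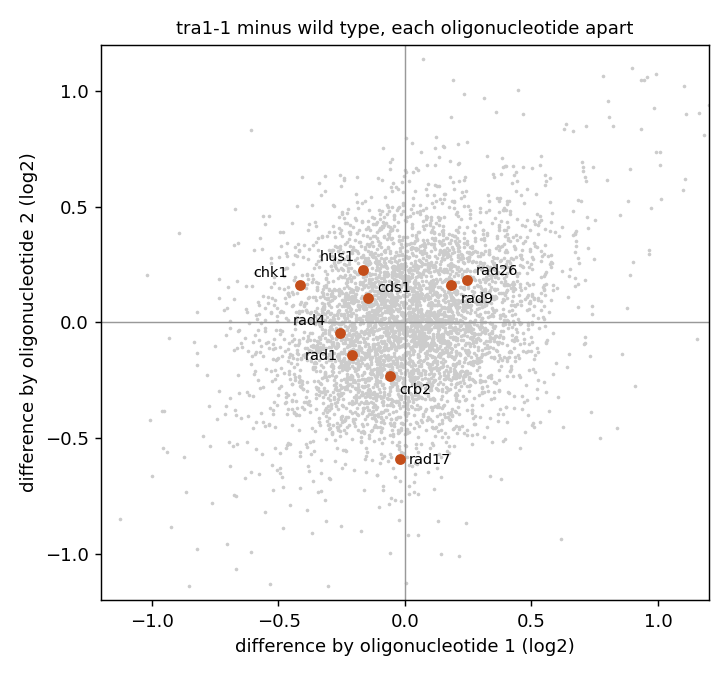
Difference between the mutant-labelled and the WT-labelled arrays by the first (horizontal axis) and the second oligonucleotide (vertical axis) of each gene, in log2, for 4673 genes (grey) and the 9 members (orange); 26 genes lie outside the axes. rad17 lies at -0.02 and -0.59, and chk1 at -0.41 and 0.16.

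Without mutant-labelled array 3, limma called 205 genes of 4907 (4.18%), and 0 of the 9 members. The groups then did not overlap in 4 members, higher on the mutant-labelled arrays in rad26 and lower in rad17, rad1 and crb2, against 47.6% of all genes. With mutant-labelled array 3 alone set against the WT-labelled arrays, 6 members did not overlap, against 71.8% of all genes. These were rad9 (0.48), hus1 (0.27), rad1 (0.16) and crb2 (0.16), which were higher, and rad4 (-0.30) and rad17 (-0.28), which were lower, while rad26 overlapped at -0.14. The lone array was assumed to vary like the others, and 0 members passed limma's test. Of the members, rad17 alone lay apart on the same side in both settings. Its groups did not overlap with all arrays included, which fixes this outcome, so these settings add no separate evidence for rad17. With all arrays included, the second rad17 oligonucleotide lay apart, while the first overlapped between the groups.

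The genes that act with the 9 members were compared in 9 lists, in which 53 of 54 genes had an array entry of that name or synonym. In limma, 0 of the 53 passed at an adjusted p under 0.05, with 27 above and 26 below 0 and a median difference of 0.0034. At an unadjusted p under 0.05 there were 4 (7.55%), close to the 7.11% of all genes, and 14 did not overlap between the groups (26.4%, against 23.3%). These 4 were ssb1, mrc1, wee1 and pyp3, of which the first pair was higher and the second lower on the mutant-labelled arrays. Without mutant-labelled array 3, limma called 2 of the 53 (3.77%, against 4.18% of all genes), mik1 and ssb1, both higher on the mutant-labelled arrays. At an unadjusted p under 0.05 there were then 7 (13.2%, against 17.2% of all genes), and 24 did not overlap (45.3%, against 47.6%).

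The higher pair act at the replication fork. ssb1, the large subunit of the single-stranded DNA binding protein RPA, stood at -0.82 and -0.88 on the WT-labelled arrays and at -0.19, -0.10 and -0.62 on the mutant-labelled arrays, without overlap. The groups lay 0.55 ± 0.19 (SE) apart (limma adjusted p = 0.654), and 0.70 ± 0.16 (SE) without mutant-labelled array 3, which passed (limma adjusted p = 0.0135). mrc1, the adaptor that activates Cds1, stood at -0.51 and -0.55 against -0.05, 0.14 and -0.23, which puts the groups 0.48 ± 0.17 (SE) apart (limma adjusted p = 0.654), and 0.57 without mutant-labelled array 3 (limma adjusted p = 0.055). Both genes were lower on mutant-labelled array 3 than on the others of that label. The mean of the cds1 oligonucleotides was steady over the same arrays, though each oligonucleotide alone was not. Among the other mediators and fork protection genes, the 14-3-3 gene rad25 differed by 0.35 and swi3 of the fork protection complex by 0.29. The list as a whole did not share this direction. Of its 7 genes, 3 lay above and 4 below 0, with a median of -0.02.

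Targets of the checkpoint at entry into mitosis did not share a direction. mik1, a kinase that acts on Cdc2 beside Wee1, stood at -1.06 and -1.39 on the WT-labelled arrays. On the mutant-labelled arrays it stood at -0.13, -0.12 and -1.31, with its low values where tra1 was low. Mutant-labelled arrays 1 and 2 were the highest pair in 17.7% of all genes, and a relation between mik1 and tra1 was not tested. The groups lay 0.70 ± 0.32 (SE) apart (limma adjusted p = 0.704). Without mutant-labelled array 3 the difference of mik1 was 1.10 ± 0.17 (SE) and passed (limma adjusted p = 0.000508). wee1 and the phosphatase gene pyp3 differed by -0.48 and -0.41 (limma adjusted p = 0.685 for each, and 0.163 and 0.0889 without mutant-labelled array 3). wee1 stood at 0.66 and 0.09 on WT-labelled arrays 1 and 2 and at -0.11, -0.13 and -0.07 on the mutant-labelled arrays. WT-labelled array 1 thus carried most of its difference. The first wee1 oligonucleotide differed by -0.82 and the second by -0.13. cdc25, on whose product Chk1 acts, differed by -0.02. No checkpoint gene among the 9 had a range like that of mik1, and the widest, that of rad26, was 0.72.

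The remaining lists stayed closer to 0. The largest differences were -0.27 for rad50, 0.15 for ctp1 and -0.14 for nbs1 among sensor kinases and end processing, and 0.29 for rfc2, -0.28 for elg1 and 0.11 for rfc4 among the replication factor C complexes. Partners of Rad4 in the start of replication gave -0.32 for drc1, 0.28 for cdc45 and -0.18 for psf2. Genes of nucleotide supply gave 0.28 for csn2, -0.21 for csn1 and 0.19 for ddb1, all of the pathway that removes the ribonucleotide reductase inhibitor Spd1. Among fork and repair genes placed downstream of Cds1 eme1 gave 0.22, rqh1 0.16 and mus81 0.09. rad55, rad54 and rad52 of homologous recombination gave -0.20, -0.08 and 0.06. ssb3, the small RPA subunit gene, gave 0.04.

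**Figure D4:**
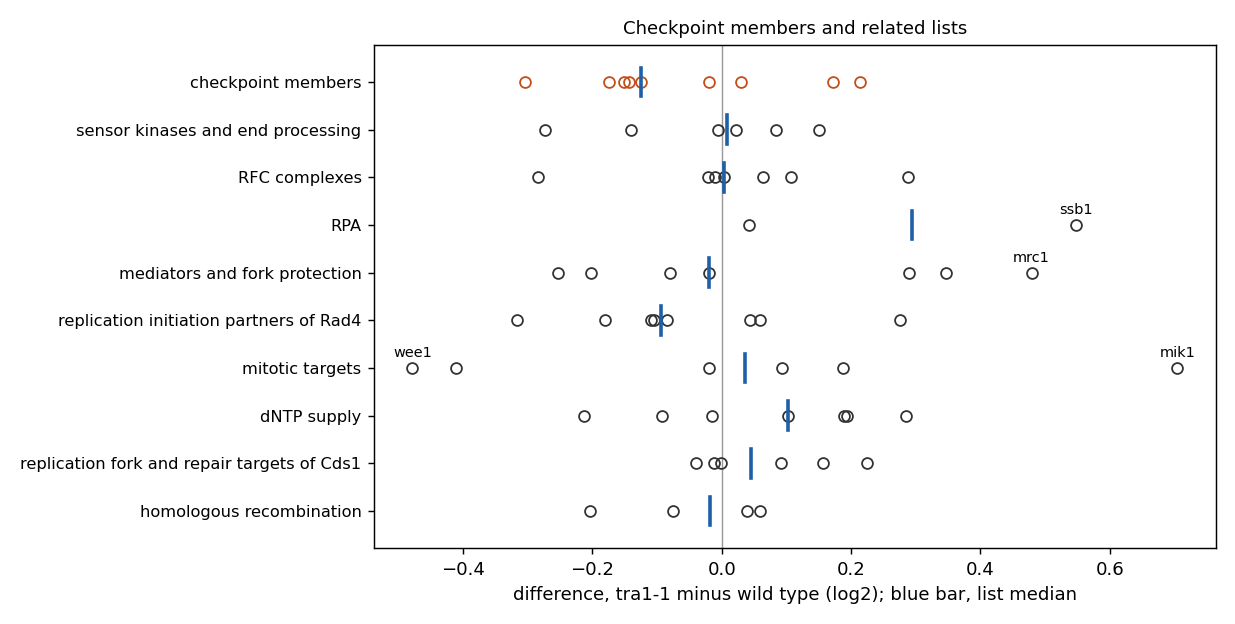
Difference between the mutant-labelled and the WT-labelled arrays (log2, horizontal axis) of each checkpoint member (orange) and each measured gene of the 9 related lists (black), with the median of each list as a blue bar and genes more than 0.45 from 0 named. The members lie between -0.30 and 0.21, and the genes farthest from 0 are mik1 at 0.70, ssb1 at 0.55, mrc1 at 0.48 and wee1 at -0.48.

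The named genes whose ratios over the 5 arrays lay nearest to those of the most variable members were found by the root mean square difference. For rad26 these were SPOM_SPAC5H10.07 (0.0605), nus1 (0.0808) and whi5 (0.0955). For rad1, with a range of 0.66, they were shf1 (0.0356), pth4 (0.0505) and sea3 (0.0844). The arrays are shared by all these genes, and the likeness is a description of 5 values.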

How the data were processed

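The deposited table holds, for each of 9858 probes, a log ratio between the dyes of every array, here taken as log2. Neither log base, direction, scanner, background correction nor normalization is given in the sources used here. Column medians lay between -0.43 and -0.21 as deposited, and arrays were therefore centred to a median of 0. Gene names came from the platform annotation (9632 probes with 1 symbol, 44 with several, 182 unlisted), with older symbols matched through the gene table of ASM294v3. The oligonucleotides of a gene were averaged. Of 4929 entries, 22 had no value on some array and were dropped. Positions are not given, because the array's genome build is not named.

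Groups were compared with limma 3.58.1 (lmFit, eBayes; R 4.3.3) in a 2-sided test on all 5 arrays, and p-values were adjusted over all genes by Benjamini-Hochberg, with a threshold of 0.05. WT-labelled ratios were tested against 0 in that fit, and mutant-labelled ratios in a fit of their own. Oligonucleotides were fitted apart over all probes. Precision is limited by the small number of arrays. The script was tested on simulated data.

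The members and lists were chosen with earlier results of these data known. Named were all members, tra1, rad3, mik1, cdc25, wee1, up to 3 genes per list by the largest difference in size, and the 3 genes nearest to each of the 2 most variable members. rfc3 and rfc5 were added after their values were seen. Alternatives were uncentred values, quantile or scale normalization, other rules for missing values, a robust prior, array weights, a replicate block, single oligonucleotides and leaving out arrays. The rules for missing values and the robust prior left the difference of every member as it was, so no sign could turn there. The replicate block gave each member the same difference as leaving out mutant-labelled array 3. Figures were drawn with matplotlib 3.10.9.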

Additional observations from a re-analysis of the deposited data

How the results depend on the processing

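In limma, 0 of the 9 members passed the group comparison under each of the 16 alternatives run. rad17, rad9 and rad4 kept their sign wherever it could turn. With 1 array left out their differences ranged from -0.45 to -0.16, 0.004 to 0.34 and -0.29 to -0.016. The count over all genes moved from 0 to 2 with scale normalization, 95 with array weights and 329 with a replicate block, ranged from 0 to 205 when 1 array was left out, the highest without mutant-labelled array 3, and was 1 without mutant-labelled arrays 1 and 2. Deviations from the group means correlated with r = 0.036 and -0.032 for arrays of the same number. The deviations of the 2 WT-labelled arrays mirror each other, so these values cannot tell whether the numbers pair the arrays. Since number 3 occurs in 1 group, the block leaves that array without weight.

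hus1 turned sign with the values as deposited (-0.015), quantile normalization (-0.048), scale normalization (-0.015), array weights (-0.049), the replicate block (-0.092) and the first oligonucleotide (-0.17), and ranged from -0.16 to 0.22 with 1 array left out. cds1 turned with quantile (0.038) and scale normalization (0.0039) and the second oligonucleotide (0.11), and ranged from -0.13 to 0.088. rad26 ranged from -0.041 to 0.47, rad1 from -0.34 to -0.013, crb2 from -0.29 to -0.001 and chk1 from -0.23 to -0.016. Without mutant-labelled arrays 1 and 2, rad26, rad1 and crb2 turned to -0.14, 0.16 and 0.16, and chk1 turned to 0.16 with its second oligonucleotide. Using the second oligonucleotide of every member moved the median of the 9 members to 0.11. That median ranged from -0.16 to -0.013 with 1 array left out, and was -0.0058 without mutant-labelled arrays 1 and 2. The causes were not tested. Members past the test against 0 numbered 3 on the WT-labelled arrays and 5 on the mutant-labelled arrays with the values as deposited, all below 0, where the median of all genes lay at -0.30 and -0.37 and 31.8% and 53.3% of all genes passed. With 1 mutant-labelled array left out they numbered 1 to 4 and 0 to 2, while 8.05% to 27.9% and 1.32% to 22.4% of all genes passed. Without mutant-labelled array 3, rad26, rad17 and chk1 joined cds1 in the former group, and hus1 joined it in the latter. The means of the former group did not change, while the spread shared with the mutant-labelled arrays did. Members whose groups did not overlap numbered 1 on all arrays, 4 without mutant-labelled array 3 and 6 without the other two of that label, 2 settings added after the data were seen. So was that of the related lists without mutant-labelled array 3, where 2 of 53 genes passed in place of 0. Leaving out a WT-labelled array was not run for the test of that group against 0, since 1 array would remain. Signal over background could not be judged without channel intensities, which were not analysed here.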
